A study of Mus musculus with 12 samples.

Results

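The transcription factors that set keratinocyte identity and drive its differentiation were followed through wounded mouse epidermis. The group held 10 genes (Trp63, Klf5, Grhl1, Grhl2, Grhl3, Ovol1, Gata3, Tfap2a, Hopx and Zfp750), chosen by name for this role, with earlier results of these data known. All 10 were among the 55315 gene symbols of the deposited count table and all 10 were among the 16677 genes with enough counts to test. RNA came from epithelial cells sorted 3 days after wounding from a ring of skin 0.25 mm wide around the wound. The 4 groups, each with 3 libraries, were RORgt-deficient A5-positive, RORgt-deficient A5-negative, wild-type A5-positive and wild-type A5-negative. RORgt is the lineage factor of lymphocytes that make interleukin-17. The deficient mice are named GFP-KI in the sample titles, and the labels name no promoter or cell type to which the deficiency would be restricted. All groups shared the sort for live cells with Epcam and integrin a6 and without CD45, CD31 and CD117. They differed in integrin a5, which in the submitters' scheme marks the migrating tongue (A5-positive) as against the wound edge behind it (A5-negative). Each library pooled 2 or 3 mice, and no age or strain of the mice is stated. The series asks how interleukin-17 shapes the response of injured epithelium to low oxygen.

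Keratinocytes are born in the basal layer of the epidermis, leave it, and build the barrier as they move outward. The p63 protein of Trp63 holds the basal epithelial program, with Tfap2a and Klf5 acting beside it, while Gata3, the grainyhead-like factors, Ovol1 and Zfp750 take part in leaving the cell cycle, in terminal differentiation and in barrier formation. Grhl3 is also needed for the closure of epidermal wounds in mouse embryos.

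The cells carried the keratinocyte label. Levels are given as CPM, read counts relative to library size and scaled between libraries by TMM factors. Krt14 and Krt5, the keratins of basal cells, lay at 12238 to 40554 and 9112 to 28384 CPM over the 12 libraries. Krt10, a keratin of suprabasal cells, ran from 1367 to 6210 CPM, so each fraction also held RNA of differentiating cells. In RORgt-deficient mice Krt10 had 1592 to 2975 CPM in A5-positive cells, against 3771 to 5417 CPM in A5-negative cells. In wild-type mice it had 1367 to 4437 CPM in A5-positive cells, against 3254 to 6210 CPM in A5-negative cells, with overlap. The part of this difference in the members' changes was not tested. In such bulk samples fewer cells of a type and less RNA per cell cannot be told apart. Total counts ran from 29259516 to 74474252, and the member with the fewest counts in any library, Tfap2a, had 1067 there.

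RefSeq promoter windows (GRCm38.p6, 250 bases before to 50 after a transcript start) were held for 5 of the 10 factors, Grhl1, Grhl3, Gata3, Tfap2a and Hopx. Windows of Grhl1, Grhl3 and Gata3 are shown because these are the factors with a window that fell in A5-positive cells when both genotypes were averaged. Capitals mark matches on either strand to short motifs of the factor families themselves: AACCNGTT for grainyhead-like, GCCNNNGGC for TFAP2, AGATAA for the GATA family, CCGTTA for OVOL proteins and CCACCC for KLF proteins.
Grhl1, chr12:24572037-24572336, plus strand: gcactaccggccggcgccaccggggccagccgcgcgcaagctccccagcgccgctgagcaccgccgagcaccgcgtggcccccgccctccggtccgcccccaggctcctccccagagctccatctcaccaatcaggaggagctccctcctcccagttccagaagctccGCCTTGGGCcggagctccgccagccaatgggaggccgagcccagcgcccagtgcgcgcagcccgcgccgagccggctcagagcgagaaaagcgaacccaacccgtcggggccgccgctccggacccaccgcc
Grhl3, chr4:135573583-135573882, minus strand: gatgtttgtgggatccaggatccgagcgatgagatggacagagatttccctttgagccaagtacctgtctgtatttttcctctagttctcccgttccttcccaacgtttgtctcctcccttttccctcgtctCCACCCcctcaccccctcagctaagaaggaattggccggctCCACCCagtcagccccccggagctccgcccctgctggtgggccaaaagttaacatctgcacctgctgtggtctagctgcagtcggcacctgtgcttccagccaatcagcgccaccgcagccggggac
Gata3, chr2:9878551-9878850, minus strand: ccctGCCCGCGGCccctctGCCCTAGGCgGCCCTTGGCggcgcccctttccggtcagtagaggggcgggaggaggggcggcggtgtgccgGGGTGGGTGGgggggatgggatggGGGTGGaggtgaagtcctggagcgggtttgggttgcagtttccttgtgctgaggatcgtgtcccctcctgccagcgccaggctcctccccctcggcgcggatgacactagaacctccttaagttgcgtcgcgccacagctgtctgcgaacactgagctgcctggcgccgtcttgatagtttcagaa
The Grhl1 window shown, at the outer start of the gene, held 1 TFAP2 match, beginning 82 bases before the start, and no other. A second Grhl1 window, at a RefSeq start 8436 bases further in and not shown, held 1 KLF match at position -81 and no TFAP2 match. The Grhl3 window held 2 KLF matches, at positions -118 and -77 from the start. The Gata3 window, at a RefSeq start 11434 bases from the outer end of the annotated gene, held 3 TFAP2 matches and 3 KLF matches, and in the KLF run GGGTGGGTGG 2 of these overlap by 2 bases. None of the 3 windows held a grainyhead-like, GATA or OVOL match. Of 32851 RefSeq promoter windows, 2.1% held the grainyhead-like motif, 16.6% the TFAP2 motif, 11.2% the GATA motif, 2.8% the OVOL motif and 31.5% the KLF motif, so these matches are a description of the letters and not of binding.

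The factors spanned a wide range of levels. Per length of exon, Klf5 was the most abundant with 236 ± 43.2 CPM per kb (SD over 12 libraries), followed by Ovol1 with 148 ± 61.6 and Grhl3 with 108 ± 45.2 CPM per kb. Gata3 (91.5 ± 17.6 CPM per kb) and Trp63 (83.6 ± 10.3 CPM per kb) came next. Hopx at 42.7 ± 4.69, Zfp750 at 31.6 ± 10.6 and Grhl1 at 30.3 ± 9.04 CPM per kb formed a middle group. Tfap2a at 10.4 ± 1.94 and Grhl2 at 7.56 ± 1.4 CPM per kb were lowest. Ovol1, Grhl3, Gata3 and Trp63 changed places between libraries and do not form a fixed order, and neither do Hopx, Zfp750 and Grhl1. Hopx also ranked above Grhl3 in RORgt-deficient A5-positive library 1, and Grhl2 above Tfap2a in wild-type A5-positive library 3. Klf5 stayed clear of Gata3, Trp63 and everything below them. Within the grainyhead-like family, whose 3 members bind the same DNA motif, Grhl3 made up 57.9% to 78.1% of the summed level per length in every library. Length here counts all annotated exons of a gene together, 2.79 kb for Grhl3 and 8.61 kb for Grhl2, so order and shares depend on it. By mean CPM alone, Trp63 (702) lay above Ovol1 (515). In wild-type A5-positive library 1, Grhl3 and Grhl1 both had 106 CPM and Grhl2 had 73.3 CPM.

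**Figure D1:**
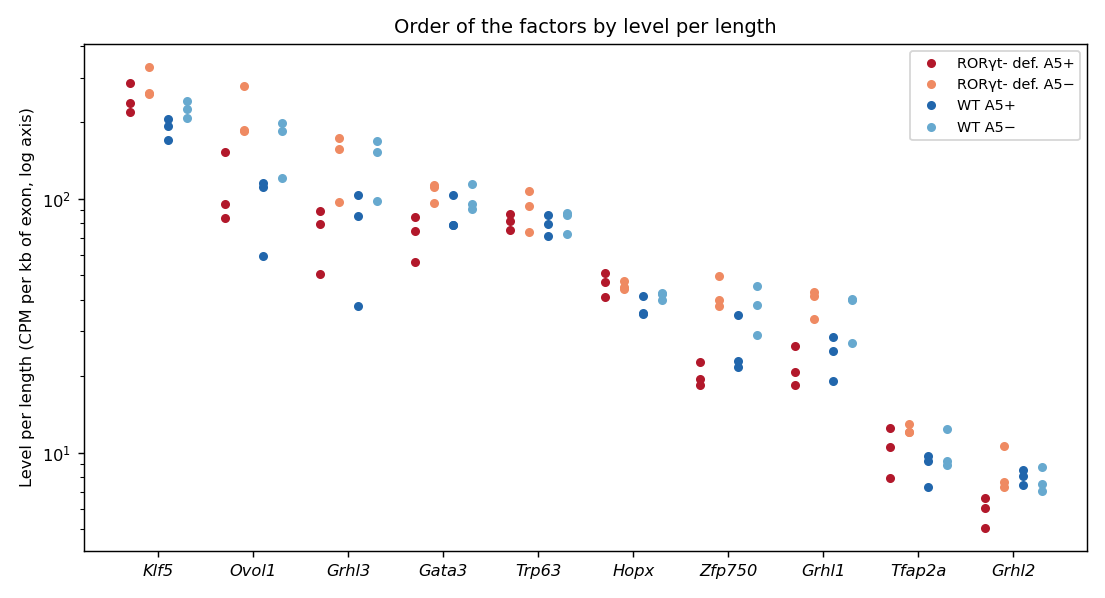
Level of each factor in CPM per kb of exon (log axis) in the 12 libraries, coloured by group, in order of the mean. Klf5 lies highest, with 170 to 330 CPM per kb, and Grhl2 and Tfap2a lowest, with 5.05 to 13 CPM per kb.

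The first comparison set A5-positive against A5-negative cells of the same genotype. Averaged over both genotypes, Grhl1, Grhl3, Ovol1, Zfp750 and Gata3 fell, by 0.38 to 0.93 on the log2 scale, and no member rose (edgeR quasi-likelihood test with Benjamini-Hochberg adjustment over all genes, here and below). Of all genes tested, 6.35% fell and 11.9% rose in this averaged comparison. Trp63, Klf5, Tfap2a, Hopx and Grhl2 did not pass the test. Within one genotype, 2 of 10 members fell in RORgt-deficient mice (Grhl1 and Zfp750; 0.965% of all genes fell there) and none in wild-type mice (0.33% of all genes fell). In wild-type mice Grhl1, Grhl3, Ovol1 and Zfp750 had an unadjusted p under 0.05, as 20.5% of all genes did, and DESeq2 and voom called no member there either.

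The libraries of each group carry the numbers 1 to 3, and libraries with the same number deviated together from their group means. They were therefore treated as pairs in a second fit, with the number as a block, and in ratios between libraries of the same number. The edgeR fit used above did not include the number. Libraries numbered 1 had 51634191 to 74474252 total counts, and all others 29259516 to 38015775. Mitochondrial genes took 0.312% to 0.365% of counts in libraries numbered 2, and 0.459% to 0.853% in all others. What the number stands for was not tested. With the number as a block in the fit, 6 of 10 members fell in RORgt-deficient mice (Grhl1, Grhl2, Grhl3, Ovol1, Gata3 and Zfp750), against 7.54% of all genes. In wild-type mice 4 fell with the block (Grhl1, Grhl3, Ovol1 and Zfp750), against 5.59% of all genes. In the averaged comparison the same 5 members fell with and without the block, with 15.5% of all genes lower with it. Between libraries of the same number, Grhl1, Grhl3, Ovol1, Zfp750, Gata3 and Klf5 were lower in the A5-positive one in 6 of 6 pairs, as 15.5% of all genes were. Levels in A5-positive cells lay below A5-negative ones without overlap for 6 members in RORgt-deficient mice (Grhl1, Grhl2, Grhl3, Ovol1, Gata3 and Zfp750; 11.3% of all genes) and for 2 in wild-type mice (Klf5 and Ovol1; 9.12% of all genes).

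**Figure D2:**
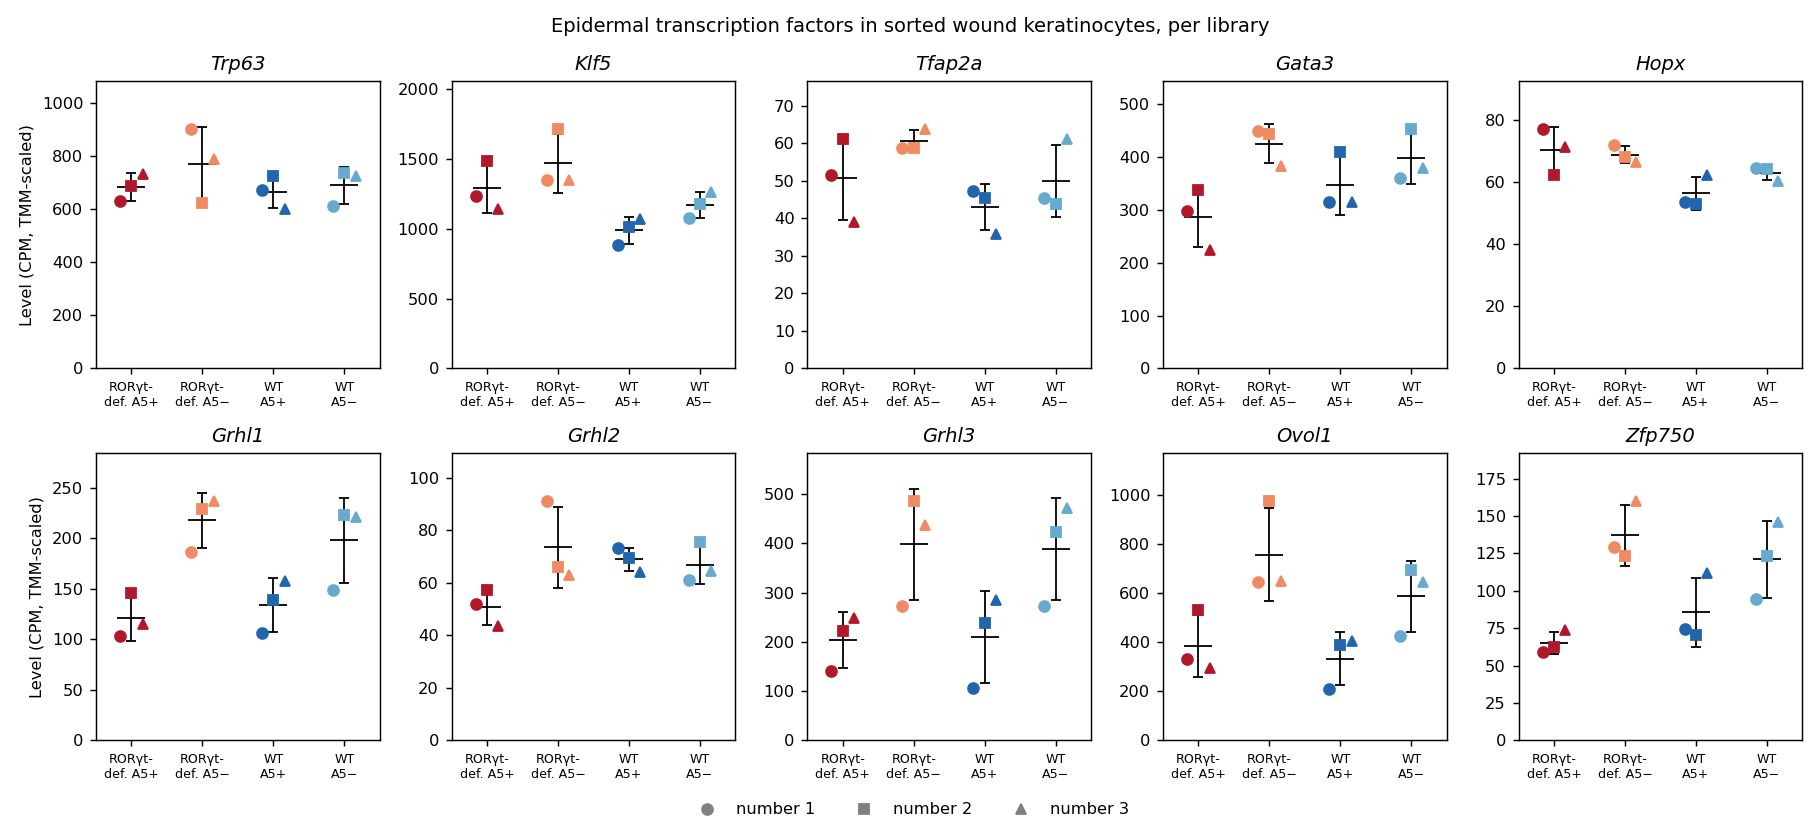
Level of each factor in CPM (TMM-scaled) per library, with group mean and SD (black bars, n = 3) and marker shapes for the library numbers. Grhl1, Grhl3, Ovol1 and Zfp750 sit lower in both A5-positive groups, while Trp63 spans 600 to 901 CPM over the libraries with no separation by group.

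Grhl3 (GRCm38 chromosome 4, 135541888 to 135573630, minus strand), a driver of barrier formation, had 141, 222 and 249 CPM in A5-positive cells of RORgt-deficient mice, against 272, 486 and 438 CPM in their A5-negative cells. In wild-type mice it had 106, 239 and 286 CPM in A5-positive cells, against 273, 424 and 471 CPM in A5-negative cells. The groups did not overlap in RORgt-deficient mice and overlapped by 1 library in wild-type mice, where the number 1 library was lowest in both fractions. The averaged change was -0.93 ± 0.25 (log2 fold change ± SE, adjusted p = 0.0273). With the block it was -0.96 ± 0.14 in RORgt-deficient mice (adjusted p = 0.00121) and -0.96 ± 0.14 in wild-type mice (adjusted p = 0.00225), and without the block neither passed (adjusted p = 0.145 and 0.187). The averaged call ended without any one of 5 libraries: RORgt-deficient A5-positive 1 (adjusted p = 0.0611), RORgt-deficient A5-negative 2 (0.0564) and 3 (0.0507), and wild-type A5-negative 2 (0.0605) and 3 (0.0749).

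Grhl1 (chromosome 12, 24572283 to 24617391, plus strand), which in mice acts on desmosomal cadherin genes and hair anchorage, had 103, 146 and 115 CPM in A5-positive cells of RORgt-deficient mice, against 187, 229 and 237 CPM in their A5-negative cells. Wild-type mice had 106, 139 and 158 CPM in A5-positive cells, against 149, 223 and 221 CPM in A5-negative cells. The fractions separated fully in RORgt-deficient mice, and in wild-type mice 1 library crossed. Grhl1 fell by 0.85 ± 0.20 in RORgt-deficient mice (adjusted p = 0.0309) and in the averaged comparison by 0.70 ± 0.14 (adjusted p = 0.00704). In wild-type mice the change was -0.56 ± 0.20 without the block (adjusted p = 0.149) and -0.55 ± 0.11 with it (adjusted p = 0.0107). The call in RORgt-deficient mice ended without any one of 7 libraries: RORgt-deficient A5-positive 1 (adjusted p = 0.134) and 3 (0.126), RORgt-deficient A5-negative 2 (0.0969) and 3 (0.105), wild-type A5-positive 2 (0.0625), and wild-type A5-negative 2 (0.0519) and 3 (0.0596). With the block it held in 12 of 12 such fits. The blocked wild-type call ended without wild-type A5-positive 1 (adjusted p = 0.0538) or 2 (0.0659) or wild-type A5-negative 3 (0.0671).

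Grhl2 (chromosome 15, 37233036 to 37363569, plus strand), the family member tied to epithelial junctions, had 51.9, 57.2 and 43.5 CPM in A5-positive cells of RORgt-deficient mice, against 91.2, 66.0 and 63.2 CPM in their A5-negative cells. In wild-type mice the values were 73.3, 69.3 and 64.3 CPM in A5-positive cells, against 61.0, 75.4 and 64.6 CPM in A5-negative cells. The fractions were apart in RORgt-deficient mice and intermixed in wild-type mice. The change in RORgt-deficient mice was -0.53 ± 0.16 (adjusted p = 0.0844), and it was called with the block (-0.53 ± 0.14, adjusted p = 0.0241). That call ended without RORgt-deficient A5-positive 1 (adjusted p = 0.0892) or 3 (0.111) or RORgt-deficient A5-negative 1 (0.0853). In wild-type mice the change was 0.04 ± 0.16 (adjusted p = 0.901). An antisense gene, Gm16136, overlaps an exon of Grhl2 by 124 bases, and no source used here states whether counting used strand, so Grhl2 counts may include its reads.

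Ovol1 (chromosome 19, 5549136 to 5560646, minus strand), a zinc finger repressor that helps keratinocytes stop dividing and keeps them epithelial, showed the widest range of levels, 4.69-fold between its highest and lowest library. It had 333, 529 and 293 CPM in A5-positive cells of RORgt-deficient mice, against 645, 974 and 648 CPM in their A5-negative cells. Wild-type mice had 208, 388 and 403 CPM in A5-positive cells, against 423, 692 and 646 CPM in A5-negative cells. Ovol1 was the one member whose fractions did not overlap in either genotype, a pattern that 3.14% of all genes showed in the lower direction. Its averaged change was -0.90 ± 0.22 (adjusted p = 0.0158). With the block it fell by 0.98 ± 0.19 in RORgt-deficient mice (adjusted p = 0.00637) and by 0.83 ± 0.19 in wild-type mice (adjusted p = 0.018), and without it neither passed (adjusted p = 0.0921 and 0.159). The blocked wild-type call ended without wild-type A5-positive 1 (adjusted p = 0.0886) or 2 (0.0831) or wild-type A5-negative 3 (0.107).

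Zfp750 (chromosome 11, 121510978 to 121519333, minus strand), the mouse counterpart of a p63 target that promotes terminal differentiation in human keratinocytes, had the smallest adjusted p of the members in the averaged comparison without the block (with it, Grhl3 had 6.48e-05 and Zfp750 7.56e-05). It had 59.4, 62.7 and 73.5 CPM in A5-positive cells of RORgt-deficient mice, against 129, 123 and 160 CPM in their A5-negative cells. Wild-type mice had 74.4, 70.2 and 112 CPM in A5-positive cells, against 94.2, 123 and 146 CPM in A5-negative cells. The fractions were far apart in RORgt-deficient mice and overlapped by 1 library in wild-type mice. It fell by 1.07 ± 0.21 in RORgt-deficient mice (adjusted p = 0.0102), a call kept in 12 of 12 fits that left out 1 library. The averaged change was -0.79 ± 0.15 (adjusted p = 0.00416). In wild-type mice it was -0.50 ± 0.21 without the block (adjusted p = 0.197) and -0.51 ± 0.12 with it (adjusted p = 0.018); the blocked call ended without wild-type A5-positive 1 (adjusted p = 0.0675) or 2 (0.0841) or wild-type A5-negative 2 (0.0657) or 3 (0.0758). Zfp750 lies within an intron of Tbcd on the other strand, so intronic reads of Tbcd could add to it.

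**Figure D3:**
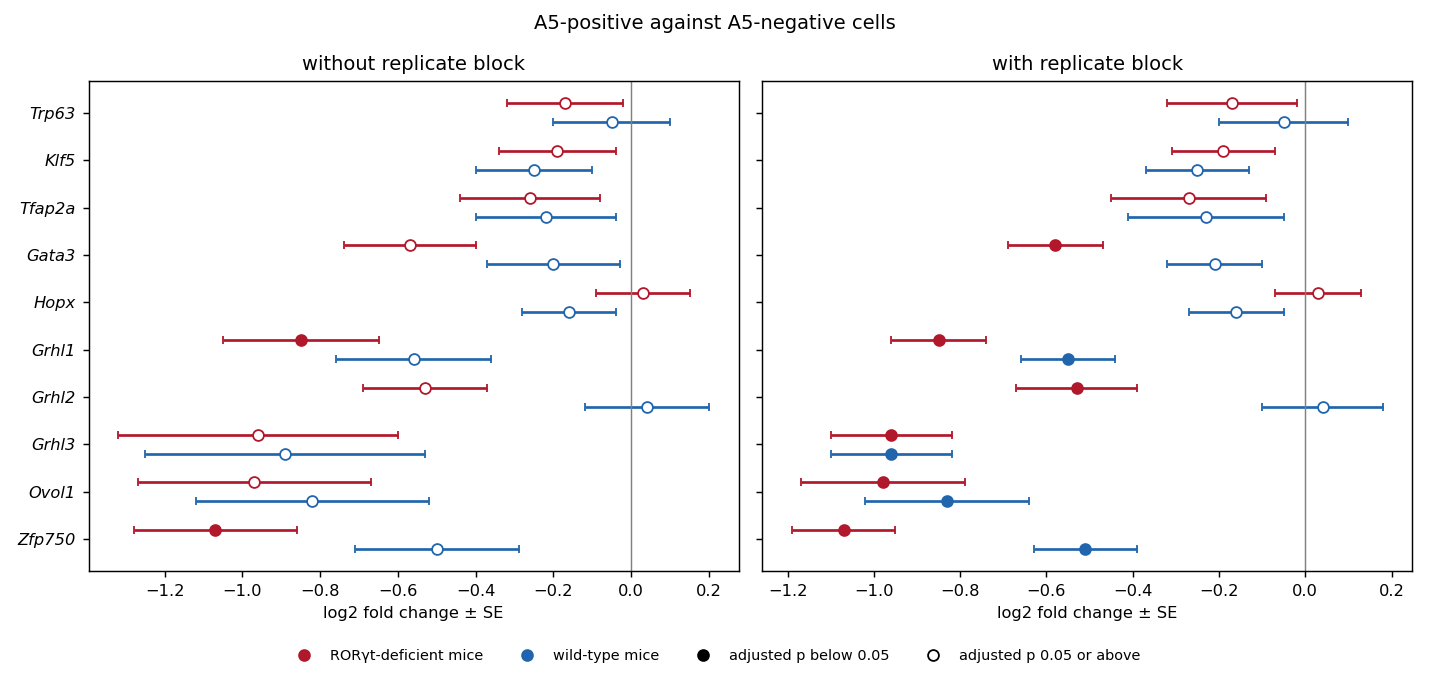
Log2 fold change ± SE of A5-positive against A5-negative cells in each genotype, without (left) and with (right) the replicate block; filled points have an adjusted p below 0.05. Without the block 2 points are filled, both RORgt-deficient, and with it 6 RORgt-deficient and 4 wild-type points are.

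Gata3 (chromosome 2, 9857078 to 9890034, minus strand), which directs hair root sheath and barrier lipid programs in mouse skin, had 298, 338 and 224 CPM in A5-positive cells of RORgt-deficient mice, against 449, 443 and 383 CPM in their A5-negative cells. Wild-type mice had 314, 410 and 314 CPM in A5-positive cells, against 361, 453 and 380 CPM in A5-negative cells. The fractions were apart in RORgt-deficient mice and overlapped in wild-type mice. Its averaged change, -0.38 ± 0.12, passed narrowly (adjusted p = 0.0466; with the block -0.40 ± 0.08, adjusted p = 0.00388). Without the block the call ended on leaving out RORgt-deficient A5-positive 1 (adjusted p = 0.0693) or 3 (0.102), RORgt-deficient A5-negative 1 (0.0812) or 2 (0.0747), wild-type A5-positive 1 (0.119) or 3 (0.0924), or wild-type A5-negative 2 (0.116) or 3 (0.0838). In RORgt-deficient mice alone the change was -0.57 ± 0.17 (adjusted p = 0.0831), called with the block (-0.58 ± 0.11, adjusted p = 0.00673), and in wild-type mice it was -0.20 ± 0.17 (adjusted p = 0.525).

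Trp63, Tfap2a, Klf5 and Hopx did not pass the test between the fractions in either genotype. Trp63 (chromosome 16, 25683763 to 25892102, plus strand) had 629, 687 and 732 CPM in A5-positive cells of RORgt-deficient mice, against 901, 623 and 787 CPM in their A5-negative cells. In wild-type mice it had 670, 724 and 600 CPM in A5-positive cells, against 610, 734 and 724 CPM in A5-negative cells. The fractions overlapped in both genotypes, and the averaged change was -0.11 ± 0.11 (adjusted p = 0.48). Gene-level counts do not separate the p63 isoforms with and without the amino-terminal activation domain. Tfap2a (chromosome 13, 40715302 to 40738376, minus strand), a TFAP2 factor of keratinocyte gene control, had 51.5, 61.1 and 39.1 CPM in A5-positive cells of RORgt-deficient mice, against 58.8, 58.8 and 63.8 CPM in their A5-negative cells. Wild-type mice had 47.3, 45.4 and 35.9 CPM in A5-positive cells, against 45.3, 43.7 and 61.0 CPM in A5-negative cells. Both pairs of groups overlapped, and the averaged change was -0.24 ± 0.13 (adjusted p = 0.21).

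Klf5 (chromosome 14, 99298691 to 99315036, plus strand), a zinc finger factor of dividing epithelial cells, was the most abundant member. It had 1236, 1486 and 1145 CPM in A5-positive cells of RORgt-deficient mice, against 1346, 1715 and 1350 CPM in their A5-negative cells. In wild-type mice it had 885, 1010 and 1070 CPM in A5-positive cells, against 1079, 1175 and 1263 CPM in A5-negative cells. The wild-type fractions did not overlap, though 1070 and 1079 CPM stood side by side, while those of RORgt-deficient mice did. Its averaged change of -0.22 ± 0.11 did not pass (adjusted p = 0.168, and 0.0634 with the block). Hopx (chromosome 5, 77086988 to 77115121, minus strand), an atypical homeodomain protein without DNA binding of its own that marks some epithelial stem cells, varied least of all members, 1.45-fold over the libraries. It had 77.2, 62.3 and 71.3 CPM in A5-positive cells of RORgt-deficient mice, against 71.9, 68.3 and 66.5 CPM in their A5-negative cells. In wild-type mice it had 53.6, 53.1 and 62.5 CPM in A5-positive cells, against 64.6, 64.2 and 60.4 CPM in A5-negative cells. The fractions overlapped in both genotypes, and the averaged change was -0.07 ± 0.08 (adjusted p = 0.597).

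**Figure D4:**
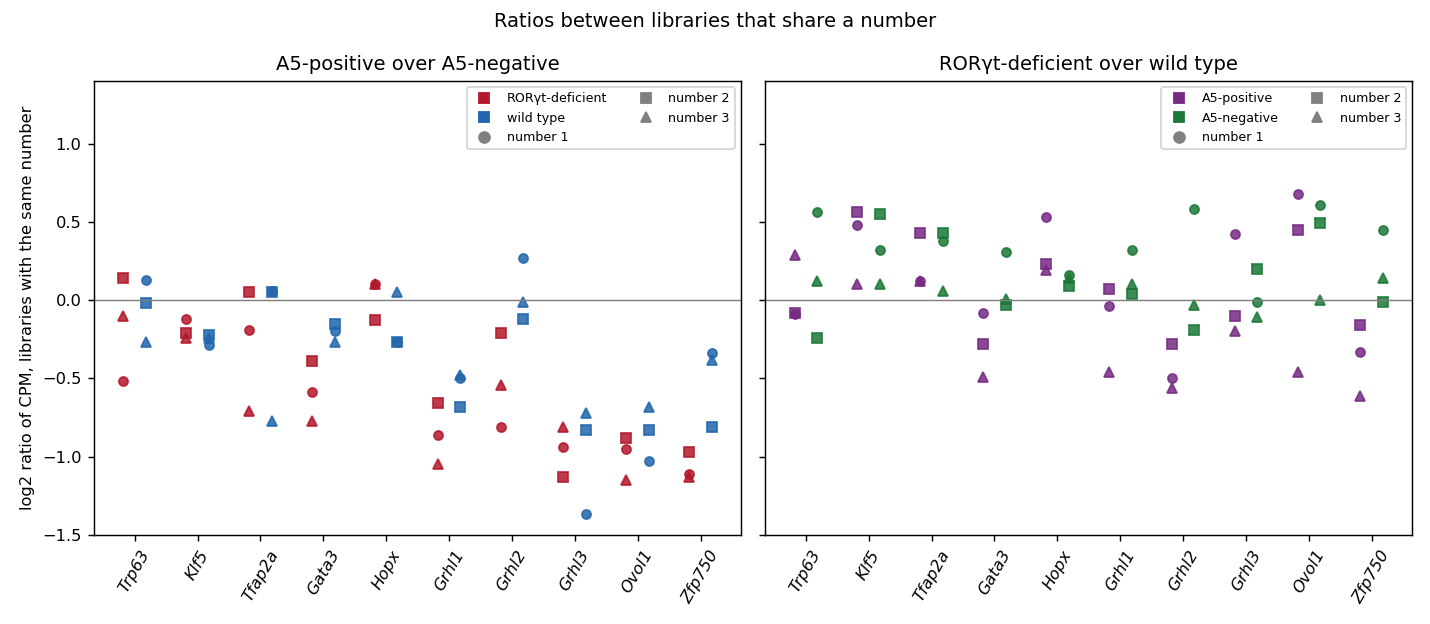
Log2 ratio of CPM between libraries that share a number, A5-positive over A5-negative (left) and RORgt-deficient over wild type (right), with marker shapes for the number. On the left all 6 points of Grhl1, Grhl3, Ovol1, Zfp750, Gata3 and Klf5 lie below 0, and on the right all 6 points of Klf5, Hopx and Tfap2a lie above 0.

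The second comparison set RORgt-deficient against wild-type mice within each fraction, the question of the series. It shares its libraries with the comparison of fractions, so the members' changes in both are not independent of each other. No member was called in A5-positive or in A5-negative cells with or without the block, nor by DESeq2. Without the block 1 gene of 16677 (0.006%) was called in each fraction, and with it 4.02% were called in A5-positive and 0.006% in A5-negative cells. At an unadjusted p under 0.05 there were 3 members in A5-positive cells (Klf5, Hopx and Grhl2; 15.0% of all genes) and 0 in A5-negative cells (5.09% of all genes).

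Klf5 separated by genotype in its levels, though it was not called in either fraction. From the values above, its RORgt-deficient libraries lay above all wild-type libraries of the same fraction, in A5-positive cells (1145 to 1486 CPM in RORgt-deficient against 885 to 1070 CPM in wild-type mice) and in A5-negative cells (1346 to 1715 CPM in RORgt-deficient against 1079 to 1263 CPM in wild-type mice). It was the one member higher without overlap in both fractions, which 1.98% of all genes were. In A5-positive cells alone 9.05% of all genes were higher without overlap. The change was 0.38 ± 0.15 in A5-positive cells (adjusted p = 0.281) and 0.33 ± 0.15 in A5-negative cells (adjusted p = 0.779). Averaged over fractions it was 0.35 ± 0.11 (adjusted p = 0.143; 0.054% of all genes were called), and with the block 0.35 ± 0.08 was called (adjusted p = 0.025; 6.97% of all genes were called higher). That blocked call ended without any one of 6 libraries, namely RORgt-deficient A5-positive 2 (adjusted p = 0.07), wild-type A5-positive 1 (0.0762) or 2 (0.0891), and wild-type A5-negative 1 (0.0521), 2 (0.102) or 3 (0.051). DESeq2 without the block also called it, with a change of 0.36 (adjusted p = 0.0316). The 15 dissociation stress genes described below also lay above 0 for genotype, all 15 in each fraction. Without the block their median change was 0.27 in A5-positive and 0.3 in A5-negative cells, and none was called. With the block 1 of the 15 was called higher in A5-positive cells (2.26% of all genes) and 0 in A5-negative cells. Their part in the members' changes between genotypes was not tested.

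Hopx and Tfap2a were higher in the RORgt-deficient library in 6 of 6 pairs of the same number, as were Klf5 and 9.89% of all genes, and neither Hopx nor Tfap2a was called. For Hopx the groups did not overlap in A5-negative cells (66.5 to 71.9 CPM in RORgt-deficient against 60.4 to 64.6 CPM in wild-type mice; Hopx and Klf5 were the 2 members so, and 7.33% of all genes), and the averaged change was 0.22 ± 0.08 (adjusted p = 0.184, and 0.0718 with the block). For Tfap2a the averaged change was 0.26 ± 0.13 (adjusted p = 0.292) and the groups overlapped. Grhl2 was lower without overlap in RORgt-deficient A5-positive cells (43.5 to 57.2 CPM, against 64.3 to 73.3 CPM in wild type), with a change of -0.44 ± 0.16 (adjusted p = 0.254, and 0.0841 with the block). In that fraction 9.01% of all genes were lower without overlap. The fibroblast markers described below also separated there, with sums of 10982 to 17813 CPM in RORgt-deficient against 6368 to 9711 CPM in wild-type A5-positive cells, and their part was not tested. Trp63 had an averaged change of 0.10 ± 0.11 (adjusted p = 0.627), Grhl1 of -0.01 ± 0.14 (0.984), Zfp750 of -0.11 ± 0.15 (0.709) and Gata3 of -0.09 ± 0.12 (0.705). For Ovol1 the averaged change was 0.29 ± 0.21 (adjusted p = 0.467). Grhl3, with 0.00 ± 0.25 (adjusted p = 0.994), could not be placed on either side of 0.

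**Figure D5:**
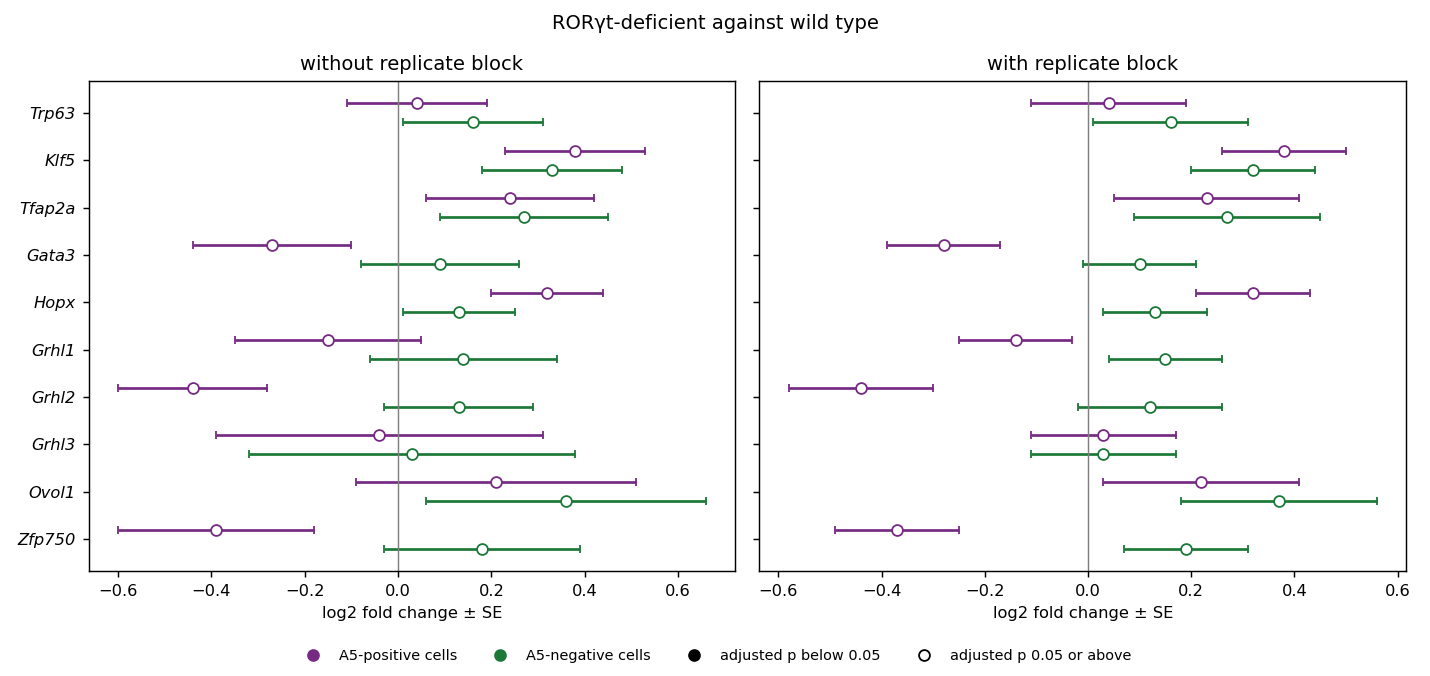
Log2 fold change ± SE of RORgt-deficient against wild-type mice in each fraction, without (left) and with (right) the replicate block; open points have an adjusted p of 0.05 or above. All points are open, with Klf5 at 0.38 and 0.33 and Grhl2 at -0.44 and 0.13 in A5-positive and A5-negative cells without the block.

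Whether the fractions differed by another amount in RORgt-deficient than in wild-type mice was tested as an interaction. No member and 0.0% of the 16677 genes passed, with or without the block, while 458 genes (2.75%) without it and 910 (5.46%) with it had an unadjusted p under 0.05, and DESeq2 called 8 genes, none of them a member. Grhl2 had a difference of -0.57 ± 0.23 and Zfp750 of -0.57 ± 0.29 on the log2 scale, both with an adjusted p of 1. With the block Zfp750 had -0.56 ± 0.16 (unadjusted p = 0.00584), Grhl2 -0.57 ± 0.19 (0.0134) and Gata3 -0.38 ± 0.16 (0.0382), each with an adjusted p of 0.914. For Grhl3 the blocked difference was 0.00 ± 0.19, its changes being -0.96 in both genotypes. The larger number of calls in RORgt-deficient mice is therefore not shown to differ from that in wild-type mice.

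Relatives and partner factors were counted in the averaged comparison of fractions, in which 6.35% of all genes fell and 11.9% rose without the block, and 15.5% fell and 18.5% rose with it. Of 21 tested relatives of the members (p53 family, KLF, grainyhead-related, OVOL, GATA and TFAP2 genes), 3 fell and 0 rose, and their median log2 fold change was -0.23, against 0.01 for all genes tested. The 3 were Klf11 (-0.63 ± 0.16, adjusted p = 0.02), Klf4, which is needed for the epidermal barrier in mice (-0.56 ± 0.16, adjusted p = 0.0325), and Klf2 (-0.36 ± 0.12, adjusted p = 0.0486). Klf4 averaged 386 ± 69.9 CPM in A5-positive and 548 ± 117 CPM in A5-negative cells of RORgt-deficient mice, and 349 ± 74.3 and 533 ± 129 CPM in the same fractions of wild-type mice (SD, n = 3). With the block 7 relatives fell and 2 rose.

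Of 37 other transcription factors of the epidermis, 6 fell and 1 rose in the averaged comparison, with a median of -0.21. Casz1, a zinc finger factor, fell by 0.80 ± 0.15 (adjusted p = 0.00412), with 122 ± 19.2 CPM in A5-positive and 223 ± 20.9 CPM in A5-negative cells of RORgt-deficient mice. Ahr, the aryl hydrocarbon receptor, fell by 0.58 ± 0.13 (adjusted p = 0.0131), and Pou2f3, a POU factor of suprabasal keratinocytes, by 0.39 ± 0.09 (adjusted p = 0.0155). The one that rose was Tcf7l1, a repressor in the Wnt pathway that keeps skin progenitors undifferentiated (0.70 ± 0.17, adjusted p = 0.0179), at group means of 6.04 to 12 CPM. It lay outside the rule for naming genes and is named, after its value was seen, as the only one higher. With the block 16 of the 37 fell and 4 rose.

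Genes of the programs these factors take part in, not shown here to be their targets, were counted against the same shares of all genes. Of 22 basal genes tied to p63, 3 rose and 1 fell, with 13 above and 9 below 0 (median 0.21). Pthlh, a parathyroid hormone-like peptide, rose by 0.76 ± 0.19 (adjusted p = 0.0185), Krt14 by 0.69 ± 0.17 (adjusted p = 0.0203), and Dsp, the desmosomal linker desmoplakin, fell by 0.51 ± 0.12 (adjusted p = 0.0142). Of 30 tested differentiation and barrier genes, 5 fell and 0 rose (median -0.53), with Calm5 at -0.83 ± 0.13 (adjusted p = 0.00171), the desmosomal cadherin Dsg1a at -0.87 ± 0.21 (adjusted p = 0.0146) and the tight junction gene Cldn1 at -0.68 ± 0.18 (adjusted p = 0.0225). Of 16 tested epithelial state genes tied to Grhl2 and Ovol proteins, 3 fell and 0 rose (median -0.33): the splicing regulator Esrp2 (-0.41 ± 0.11, adjusted p = 0.0249), the membrane glycoprotein gene Prom2 (-0.35 ± 0.10, adjusted p = 0.0302) and the tight junction gene Cldn7 (-0.66 ± 0.20, adjusted p = 0.0446). With the block these counts were 9 higher and 5 lower of the basal genes, 0 and 16 of the differentiation genes, and 1 and 9 of the epithelial state genes.

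Markers of other cells and states were summed in each library and counted in the averaged comparison. The summed level of 12 fibroblast markers was 10982 to 17813 CPM in RORgt-deficient A5-positive cells, against 801 to 1837 CPM in their A5-negative cells, and 6368 to 9711 CPM in wild-type A5-positive cells, against 1446 to 2131 CPM in A5-negative cells. In the averaged comparison 11 of the 12 rose, 12 with the block, and none was at 0 in any library. Postn, which held 742 CPM or more in every library, makes up much of the A5-negative sums. Of 16 proliferation genes 15 rose with or without the block, with sums of 763 to 1291 CPM in RORgt-deficient A5-positive cells, against 375 to 501 CPM in A5-negative cells, and of 1154 to 1557 CPM in wild-type A5-positive cells, against 550 to 633 CPM in A5-negative cells. Of 15 dissociation stress genes 8 fell, 13 with the block, with sums of 14944 to 19453 CPM in A5-positive and 20161 to 28640 CPM in A5-negative cells of RORgt-deficient mice, and of 11760 to 15993 CPM in A5-positive and 16874 to 22446 CPM in A5-negative cells of wild-type mice. Macrophage markers (11 genes) summed to 1408 CPM in wild-type A5-negative library 1, against 90.1 to 618 CPM in the other libraries, and 5 of them fell in the averaged comparison, 9 with the block. Hair follicle markers summed to 3812 to 7013 CPM in A5-positive and 5990 to 9992 CPM in A5-negative cells of RORgt-deficient mice, and to 3178 to 8319 CPM in A5-positive and 7928 to 11509 CPM in A5-negative cells of wild-type mice. Krt79, at 2360 to 9980 CPM, made up much of these sums, and of the 9 hair follicle markers tested 2 rose and 1 fell (median -0.13), 3 and 1 with the block. Langerhans and dendritic cell markers (9 genes) summed to 3648 CPM in wild-type A5-negative library 1, against 318 to 1298 CPM elsewhere, and 2 of them fell, 3 with the block. T cell markers (11 genes) summed to 15.7 to 37.5 CPM over all libraries, with Cd3d at 0 in 11 of 12 and Trbc2 at 3.32 to 14 CPM. Of the 6 T cell markers tested, 2 rose and 1 fell in the averaged comparison without the block (median -0.35). Without wild-type A5-negative library 1, 5 members fell in the averaged comparison (6.43% of all genes fell), and 6 with the block (13.0% of all genes fell). The part of the other cells and states in the members' changes was not tested.

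Each factor's profile was also set against those of 9061 other genes whose log2 CPM averaged 3 or more. Likeness was the root mean square (RMS) of the differences between log2 CPM values of the 12 libraries, each gene centred on its own mean. Nearest to Grhl1 was Acsl1, a fatty acid-activating enzyme (RMS difference 0.094, against a spread of 0.424 in Grhl1 itself). Nearest to Grhl3 was Mxd1, a repressor of the Myc network (0.129 against 0.652), to Ovol1 the circadian output factor Hlf (0.148 against 0.601), and to Zfp750 the sorting receptor Sort1 (0.14 against 0.477). Klf5 lay nearest to Atf4, a factor of the integrated stress response (0.071 against 0.247), and Gata3 to Rb1cc1, an autophagy gene (0.103 against 0.285). The nearest genes to Trp63, Grhl2, Tfap2a and Hopx were Frmd4a (0.085), Tecpr1 (0.101), Socs7 (0.118) and Arl6ip6 (0.077), against spreads of 0.154 to 0.265 in these 4 factors. A factor with a small spread lies near any gene that varies little, which bears on these 4 and on Klf5 and Gata3. Among the members, Grhl1 and Zfp750 differed by 0.21, Grhl1 and Ovol1 by 0.27 and Grhl2 and Gata3 by 0.17, whereas Grhl2 and Grhl3 of the same family differed by 0.66. Grhl3, with its spread of 0.652, also differed by 0.64 from Trp63 and 0.65 from Hopx, and by 0.31 from Grhl1 of its own family.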

How the data were processed

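RNA of 12 sorted epithelial samples was sequenced from SMART-Seq v4 and ThruPLEX libraries, per the labels' protocols. The authors deposited raw read counts per gene symbol; tools listed in the submitters' processing notes are Trimmomatic 0.36, STAR, featureCounts and bcl2fastq, with build mm10 (GRCm38). Whether counting used strand, which annotation it used and how multi-mapping reads were treated is not given in the sources used here. Of 55341 rows, 26 with symbols turned into dates (0.11% to 0.128% of counts) were left out, and positions came from GENCODE M21. No pair of libraries agreed within counting noise.

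Counts were fitted with edgeR 4.0.16 (R 4.3.3): TMM factors, filterByExpr, 1 model of 4 groups over 12 libraries, quasi-likelihood F test, Benjamini-Hochberg adjustment within each comparison over all 16677 genes, threshold 0.05. SE is the log2 fold change over the root of F. Each library is a pool of 2 or 3 mice, so p-values reflect spread among pools. On simulated counts of 16258 genes with 200 changed by 1 on the log2 scale between the fractions of wild-type mice, it called 59 of the 200 without the block and 39 with it, and 1 unchanged gene each, so a gene without a call is not shown to be unchanged. Simulated libraries with the same number shared no deviation, unlike the real ones. The 2 counts therefore do not tell which fit finds more changes in the real data. Residuals of the 18 pairs of libraries with the same number correlated at 0.153 to 0.722 over 9071 genes with mean log2 CPM of at least 3. The 36 other pairs ran from -0.63 to 0.315 (median -0.238), with 3 over 0.1. Residuals are taken around group means, so same-number and other pairs are not independent of each other. With mean CPM of at least 5 (10114 genes) the lowest same-number correlation was 0.0961, so 17 of 18 passed 0.1. Blocked values stand beside members' results and list counts that the block changes, except for T cell markers, which are counted without it only. Alternatives were RLE factors, no scaling, DESeq2 1.42.0, voom (limma 3.58.1), no filter, a filter of CPM 5 in 3 libraries, the 2 compared groups alone and leaving out each library.

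Members and lists were chosen with earlier results of these data known. All 10 members are named in each comparison; from other lists, up to 3 genes with the smallest p past the threshold are named, and the nearest gene by likeness for each member.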

Additional observations from a re-analysis of the deposited data

How the results depend on the processing

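In the averaged comparison of fractions the same 5 members were called under every alternative that kept all libraries. Counts of genes called moved as follows. With the replicate block 2937 genes and 6 members were called between the fractions in RORgt-deficient mice, 2394 genes and 4 members in wild-type mice, and 5661 genes in the averaged comparison. For genotype the block called 670 genes in A5-positive cells and 2018 genes and 1 member in the averaged comparison. DESeq2 called 1723 genes and 5 members for the fractions in RORgt-deficient mice, 1454 genes in wild-type mice, 493 and 21 for genotype in A5-positive and A5-negative cells, 973 and 1 member for genotype averaged, and 8 in the interaction. Voom called 1566 genes and 5 members in RORgt-deficient mice, 989 genes in wild-type mice, and 5 and 7 for genotype in A5-positive and A5-negative cells. Without a filter 1210 genes and 4 members were called in RORgt-deficient mice, 939 genes in wild-type mice, and 67, 7 and 310 genes for genotype in A5-positive, in A5-negative and averaged. The stricter filter called 4 genes for genotype averaged, and the 2 compared groups alone 344 genes in wild-type mice. Leaving out 1 library, with or without the block, gave 466 to 3080 genes and 1 to 6 members in RORgt-deficient mice, 156 to 3066 genes and 0 to 4 members in wild-type mice, and 1751 to 5665 and 3 to 7 averaged. For genotype it gave 1 to 1249 genes and 0 to 1 member in A5-positive cells, 1 to 4 genes in A5-negative cells, and 6 to 2143 genes and 0 to 3 members averaged. The members that changed sign were all without a call. For genotype averaged, Grhl1 was at 0.01 with the block, 0.00 with RLE factors or DESeq2 and 0.02 with the stricter filter, and Grhl3 at 0.03, 0.00 and 0.02. In A5-positive cells Grhl3 was at 0.03 with the block and Ovol1 at -0.05 with voom. In A5-negative cells Grhl3 was at -0.05 without scaling and -0.16 with voom. In the interaction Tfap2a was at 0.03 without scaling and 0.01 with the stricter filter, and Grhl3 at 0.06 with voom. Leaving out 1 library, the changes between fractions in RORgt-deficient mice ran from -0.06 to 0.08 for Hopx, and in wild-type mice from -0.17 to 0.01 for Trp63 and from -0.1 to 0.11 for Grhl2. For genotype in A5-positive cells they ran from -0.04 to 0.14 for Trp63, -0.3 to 0.01 for Grhl1, -0.36 to 0.27 for Grhl3 and -0.08 to 0.48 for Ovol1. In A5-negative cells they ran from -0.02 to 0.33 for Trp63, -0.03 to 0.23 for Grhl1, -0.06 to 0.25 for Grhl2 and -0.17 to 0.24 for Grhl3. Averaged they ran from -0.1 to 0.07 for Grhl1, -0.18 to 0.13 for Grhl3 and -0.18 to 0.01 for Zfp750. In the interaction they ran from -0.27 to 0.07 for Trp63, -0.04 to 0.22 for Klf5, -0.36 to 0.27 for Grhl3, -0.44 to 0.16 for Ovol1 and -0.25 to 0.15 for Tfap2a. The cause of these moves was not tested. The lowest count of a member in any library was 1067, and what depth limits in these calls was not tested.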
